A study of Mus musculus with 9 samples.

Results

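The genes of the cytosolic ribosomal proteins were followed in the striatum of mice given a dopamine toxin. Members were all genes whose symbol is Rpl or Rps with a number, with an optional letter, x or l at the end, together with Rplp0, Rplp1, Rplp2 and Rpsa. A gene was taken only through probe sets annotated with a single symbol, and the Rps6k kinases and the pseudogenes were left out. This gave 45 genes on 96 probe sets, out of 12393 genes with a single symbol on 22690 probe sets. Of the 45 genes, 24 encode proteins of the large ribosomal subunit and 21 proteins of the small subunit, and 42 of them (21 of each) were bright enough to be tested among 7964 genes.

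RNA came from the left and right striatum of male C57BL/6J mice aged 56 days, on 1 single-colour Affymetrix array per mouse. The groups were mice injected with methamphetamine (METH), mice injected with MPTP, and saline-injected mice (Control), with 3 arrays each, which the labels call biological replicates. No genotype other than the shared C57BL/6J strain is labelled. Dose, number of injections and the interval to dissection were not available from the labels. Both toxins are used in mice to model the loss of dopamine nerve endings in Parkinson's disease, and the striatum holds those endings while the dopamine cell bodies lie in the midbrain.

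Each cytosolic ribosome is built from ribosomal RNA and a full set of ribosomal proteins, most of them present once per particle, so cells need these proteins in matched amounts. In mammals much of the control over their joint output is at translation. Ribosomal protein messages start with a cytosine followed by a run of pyrimidines, the terminal oligopyrimidine (TOP) motif. Through it the kinase complex mTORC1 and the binding protein Larp1 switch the translation of these messages on or off. A change in ribosome production can therefore occur with little change in the amount of message, which is what the arrays measure. In neurons, ribosomal protein messages are also found in axons and dendrites.

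The start-site sequences are shown because the TOP motif is read from the first bases of the message. RefSeq (assembly GRCm38.p6) gave a promoter for 39 of the 45 genes, and the annotated start can lie some bases away from the start used in striatum. Each line gives 30 bases on the gene's strand, 20 before the annotated start and 10 after it, and the capitals mark the longest run of C and T in that window. The genes shown are among those with the smallest p-values in the comparisons (Rps10, Rps6, Rpl37a, Rpl41, Rpl19), the longest runs in the window (Rpl7a, Rpl35), or encode a part of the stalk that recruits translation factors (Rplp2).
Rps10, chr17:27635235-27635264, minus strand: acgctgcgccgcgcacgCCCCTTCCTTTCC
Rps6, chr4:86857358-86857387, minus strand: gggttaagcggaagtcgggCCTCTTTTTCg
Rpl7a, chr2:26910787-26910816, plus strand: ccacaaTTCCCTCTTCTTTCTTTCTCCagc
Rpl35, chr2:39005122-39005151, minus strand: gaagtcggccccgCCCTTTCCTCTTTCTCT
Rplp2, chr7:141447631-141447660, plus strand: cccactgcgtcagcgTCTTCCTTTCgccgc
Rpl41, chr10:128549159-128549188, minus strand: gacgacacacgggccggCTCggaagtgacg
Rpl37a, chr1:72711240-72711269, plus strand: gtcaCTTCCgctcgccggtctaaaaccgcg
Rpl19, chr11:98026690-98026719, plus strand: ccacgtgaccaaacgCCCTCactgcgcatg

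A run of at least 8 pyrimidines lay within 25 bases of the annotated start in 20 of the 39 promoters (51.3%), against 18.9% of the 6464 tested genes with a promoter in the table. The 39 include Rpl14, Rpl39l and Rpl3l, which were too dim to be tested. Of the tested members 18 had such a run and 18 did not. The motif CTTTC on the gene's strand in the same window was found in 12 of 39 (30.8%), against 4.95%. The motif CGGAAG, which is the core letters of an ETS-family site, was found on either strand from 250 bases before the start to 50 after it in 28 of 39 (71.8%), against 33.0%. The TATA box letters TATAAA were found in 4 of 39 (10.3%), against 6.78%, and the E-box CACGTG in 3 of 39 (7.69%), against 10.6%. The short motif CTTCC, on the gene's strand within 25 bases of the start, was found in 7 of 39 (17.9%), against 13.3%, and it overlaps the reverse strand of CGGAAG by its letters. These shares are descriptions of letters in fixed windows, and no test was made of them.

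Of the 42 ribosomal protein genes tested, 0 passed the test in METH striatum, 0 in MPTP striatum and 0 between METH and MPTP striatum. The test was limma's moderated test on log2 signal, two-sided, with p-values adjusted by the Benjamini-Hochberg method over all 7964 genes and a threshold of 0.05. Over all genes it called 1 gene in each toxin comparison (0.0126%) and 0 between the toxins (0%). That gene was Gfap, the intermediate filament of astrocytes, which rose by a log2 fold change of 1.13 ± 0.13 (SE) in METH striatum (adjusted p = 0.0404) and by 1.14 ± 0.13 in MPTP striatum (adjusted p = 0.0382). At an unadjusted p under 0.05, METH against Control held 2 ribosomal protein genes of 42, against 8.25% of all genes. By the same measure MPTP against Control held 0 of 42, against 5.49%, and METH against MPTP held 1 of 42, against 2.85%. The smallest adjusted p among the members was 0.503 for METH against Control, 0.873 for MPTP against Control and 0.999 for METH against MPTP. The smallest p that an exact permutation test of 1 gene can give with 3 arrays a group is 0.1, and none was run.

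The fold changes were small for nearly all members. In METH against Control they ran from -0.33 to 0.29 on the log2 scale with a median of -0.04, and 14 of 42 genes (33.3%) were positive, against 50.3% of all genes, whose median was 0. In MPTP against Control they ran from -0.19 to 0.19 with a median of -0.01, and 17 of 42 (40.5%) were positive, against 51.8% of all genes. Between the toxins, METH against MPTP gave -0.35 to 0.34 with a median of -0.03, and 19 of 42 (45.2%) were positive, against 47.1%. The sign of the median depended on how arrays were scaled to each other. After quantile normalization the share of positive members was 50% (21 of 42) in METH against Control, against 46.1% of all genes, and 61.9% in MPTP against Control, against 49.4%. After cyclic loess it was 57.1%, against 46.3%, and 61.9%, against 48.8%. With arrays centred on their medians, which moves all genes of an array alike, it was 23.8% in METH against Control, against 35.3% of all genes. The same centring gave 31.0% in MPTP against Control, against 40.7%, and 33.3% in METH against MPTP, against 38.9%. Both toxin comparisons use the same 3 Control arrays, so their fold changes are not independent of each other.

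The 95% intervals of the fold changes reflect the spread between arrays on the lead probe set and the deposited scale. The choice of scaling or probe set, saturation and binding to related sequences are not covered, so larger changes could have been missed. In METH against Control the interval lay within 0.5 log2 units of 0, a 1.41-fold change, for 37 of the 42 genes, against 72% of all genes. The corresponding counts were 38 of 42 in MPTP against Control, against 75%, and 38 of 42 in METH against MPTP, against 78.9%. In METH against Control the intervals that passed this bound were those of Rpl39, Rps27, Rpl27a and Rps4l, whose SE was large, and of Rps10, whose interval was of ordinary width around -0.33.

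**Figure D1:**
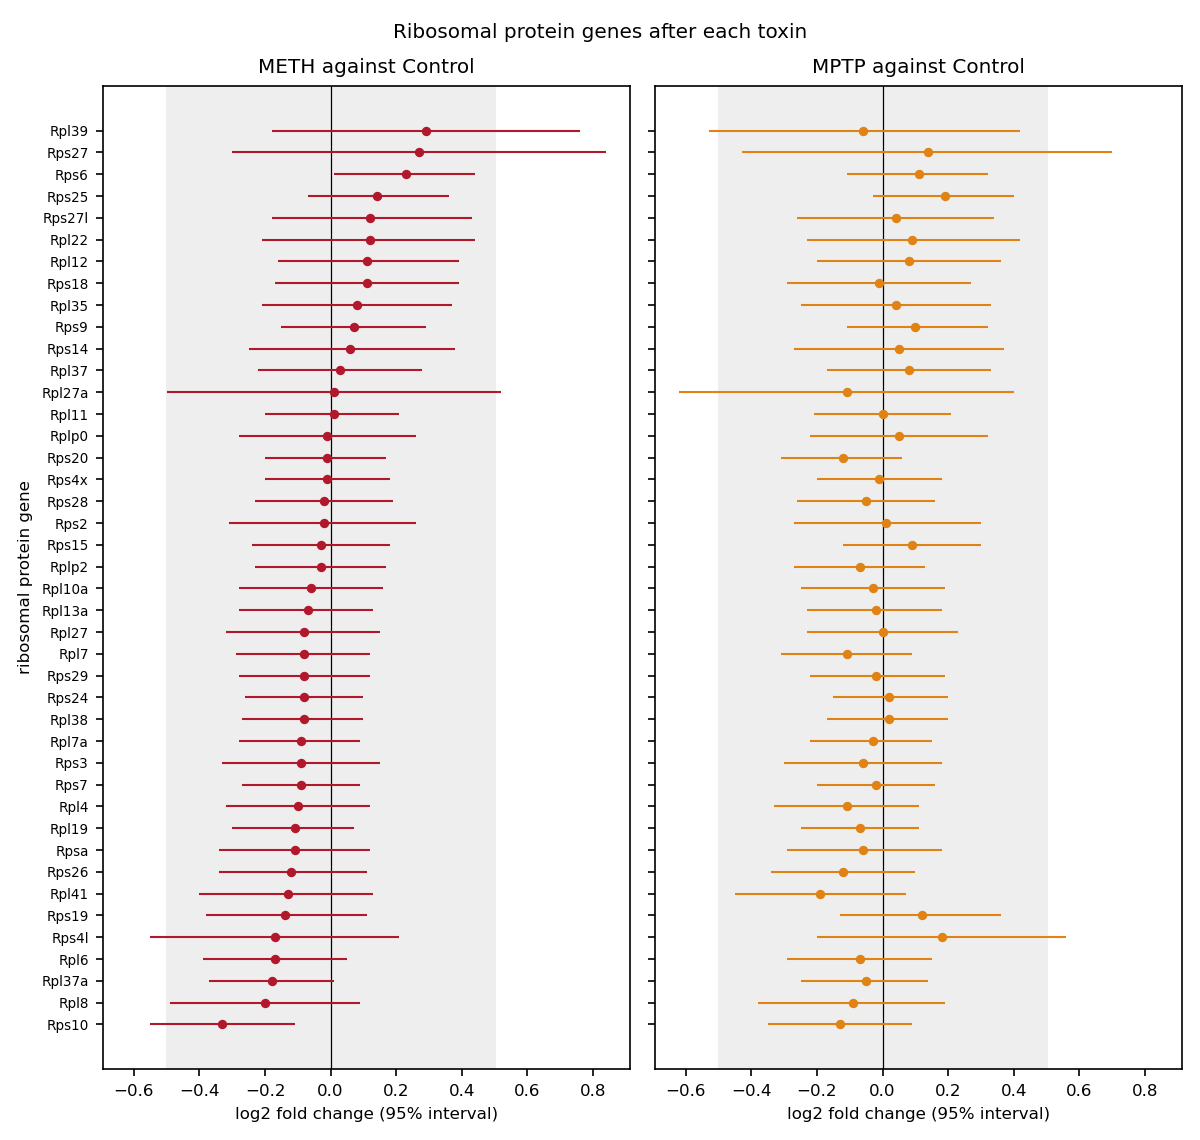
Log2 fold change (point) and 95% interval (line) of the 42 ribosomal protein genes tested, METH against Control on the left and MPTP against Control on the right, in the order of the METH values. The grey band spans 0.5 log2 units either side of 0, and it holds the whole interval of 37 genes on the left and 38 on the right.

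Within groups the members varied little. Their SD within groups had a median of 0.102 log2 units, against 0.152 for all genes tested. The smallest was 0.045 in Rps24 and the largest 0.383 in Rps27, followed by 0.34 in Rpl27a, 0.311 in Rpl39 and 0.24 in Rps4l. Members were also bright: 32 of 42 lead probe sets averaged over 10000 signal units, against 12.1% of all genes. The median log2 signal was 14.46 for the members and 11.47 for all genes. Rps27, Rpl27a, Rpl39 and Rps4l averaged 10.41, 9.72, 10.98 and 10.11. Neither the SD nor the intervals were compared with those of equally bright genes, so they are not shown to be particular to ribosomal protein genes. A signal cannot be compared between probe sets as an amount of message, since each probe set has its own binding strength.

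Rps10 had the smallest p of the members in METH against Control. It encodes a protein of the small subunit's head that is ubiquitinated when ribosomes collide, as known from human cells. The signals were 27605, 27899 and 26579 on the METH arrays, 30525, 35454 and 28794 on the MPTP arrays, and 34099, 32842 and 36438 on the Control arrays. All 3 METH arrays lay below all Control arrays and below all MPTP arrays, while MPTP and Control overlapped. The log2 fold change was -0.33 ± 0.10 (SE, 95% interval -0.55 to -0.11) in METH against Control, which did not pass (adjusted p = 0.503, unadjusted p = 0.00733). It was -0.13 ± 0.10 in MPTP against Control (adjusted p = 0.915) and -0.20 ± 0.10 in METH against MPTP (adjusted p = 0.999).

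The other 4 Rps10 probe sets above the filter did not show a difference of that size. Their METH against Control log2 fold changes were -0.12, 0.10, -0.07 and -0.12, in order of brightness, and the lowest adjusted p among them was 0.704. The brightest of these 4 also had all METH arrays below all Control and all MPTP arrays. On the remaining ones METH overlapped with both other groups. Averaging the probe sets of the gene gave -0.11 in place of -0.33.

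Rps6, the small-subunit protein phosphorylated by the S6 kinases downstream of mTORC1, was the other member at an unadjusted p under 0.05. It read 1989, 1937 and 2078 signal units in METH mice, 1989, 1884 and 1661 in MPTP mice, and 1814, 1695 and 1616 in Control mice. The METH arrays all lay above the Control arrays, and the MPTP arrays overlapped with both. The log2 fold change was 0.23 ± 0.10 in METH against Control (adjusted p = 0.553) and 0.11 ± 0.10 in MPTP against Control (adjusted p = 0.939). METH against MPTP gave 0.12 ± 0.10 (adjusted p = 0.999). The arrays measure the message and not the phosphorylated protein.

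Among the large-subunit genes, Rpl37a, which encodes a zinc-binding protein, came next in METH against Control. Its signals were 27920, 29191 and 26115 in METH mice, 31745, 28805 and 30094 in MPTP mice, and 30982, 32457 and 30655 in Control mice. On this probe set the METH arrays lay below the Control arrays without overlap, and the MPTP arrays fell in both ranges. The log2 fold change of -0.18 ± 0.09 did not pass (adjusted p = 0.624). On the other Rpl37a probe sets above the filter METH and Control overlapped, at -0.05 ± 0.10 and -0.33 ± 0.24. Rpl6, a structural protein of the large subunit, read 23542, 20156 and 21170 in METH mice and 23413, 24484 and 25033 in Control mice, and the groups overlapped (-0.17 ± 0.10, adjusted p = 0.667). Rpl8, which lies near the peptidyl transferase centre, read 13378, 9517 and 12516 in METH mice and 14497, 13280 and 12565 in Control mice. The Rpl8 groups overlapped, and METH 2 held the lowest of these values (-0.20 ± 0.13, adjusted p = 0.693).

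Rpl19, which reaches across to the small subunit and is often used as a loading reference, read 25632, 24650 and 25077 in METH mice and 27515, 28122 and 25997 in Control mice. The METH values lay below the Control values by a narrow margin (-0.11 ± 0.08, adjusted p = 0.715). Rpl39, a small protein lining the exit tunnel of the nascent chain, read 1974, 2986 and 2145 in METH mice, 2188, 1326 and 2135 in MPTP mice, and 2164, 1794 and 1790 in Control mice. Its wide spread came from METH 2, the highest of the 9, and MPTP 2, the lowest. The Rpl39 fold changes were 0.29 ± 0.21 in METH against Control (adjusted p = 0.727) and 0.34 ± 0.21 in METH against MPTP (adjusted p = 0.999).

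In MPTP striatum the smallest p among the members belonged to Rps25, a small-subunit head protein that several viral internal ribosome entry sites require. Signals were 1364, 1494 and 1290 in METH mice, 1420, 1391 and 1469 in MPTP mice, and 1245, 1152 and 1366 in Control mice. The 3 MPTP arrays lay above the Control arrays, the closest pair being 1391 and 1366, and the METH arrays overlapped with Control. The log2 fold change was 0.19 ± 0.10 in MPTP against Control (adjusted p = 0.873) and 0.14 ± 0.10 in METH against Control (adjusted p = 0.714).

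Several other members were named by small p-values in MPTP striatum. Rps20, of the small-subunit head, read 15214, 14614 and 13831 in MPTP mice and 16509, 15833 and 15167 in Control mice (-0.12 ± 0.08, adjusted p = 0.902). Rpl7, of the large subunit, read 22441, 22948 and 21130 in MPTP mice and 24952, 23636 and 23170 in Control mice (-0.11 ± 0.09, adjusted p = 0.927). Rps26, which sits by the channel where the message leaves the ribosome, read 23091, 21950 and 20444 in MPTP mice and 23776, 24204 and 23105 in Control mice (-0.12 ± 0.10, adjusted p = 0.927). On the lead probe sets the MPTP and Control values overlapped for Rps20 and were apart, by narrow margins, for Rpl7 and Rps26. The other Rpl7 probe sets above the filter had the opposite sign, at 0.11 ± 0.12 and 0.20 ± 0.15, with overlapping groups. Rpl4, whose loop narrows the exit tunnel, had -0.11 ± 0.10 in MPTP against Control, with overlapping groups.

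Between the toxins the smallest unadjusted p, 0.0457, belonged to Rps19, a small-subunit head protein whose loss of function causes Diamond-Blackfan anaemia in humans. It read 13009, 12132 and 12340 in METH mice, 12977, 16699 and 15158 in MPTP mice, and 14784, 12684 and 13770 in Control mice. METH 1 and MPTP 1 had nearly equal signals, and the Control arrays covered a range that overlapped with both toxins. The METH against MPTP log2 fold change was -0.25 ± 0.11 (adjusted p = 0.999). Rps4l, named as a relative of Rps4x, read 1067, 793 and 1107 in METH mice and 1450, 1061 and 1248 in MPTP mice (-0.35 ± 0.17, adjusted p = 0.999), and its groups overlapped. Rps24, another small-subunit gene tied to that anaemia in humans, read 27514, 26872 and 27328 in METH mice and 27997, 30741 and 29008 in MPTP mice. Its groups were apart by a narrow margin (-0.10 ± 0.08, adjusted p = 0.999). On the other Rps24 probe sets above the filter METH and MPTP overlapped, at 0.09 ± 0.10, 0.09 ± 0.10 and -0.09 ± 0.17. Rpl37a had -0.12 ± 0.09 with overlapping groups, and Rps20 had 0.11 ± 0.08, its METH arrays at 15570, 15253 and 16201 lying above its MPTP arrays. On the other Rps20 probe set the METH arrays lay below the MPTP arrays instead (-0.16 ± 0.09).

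**Figure D2:**
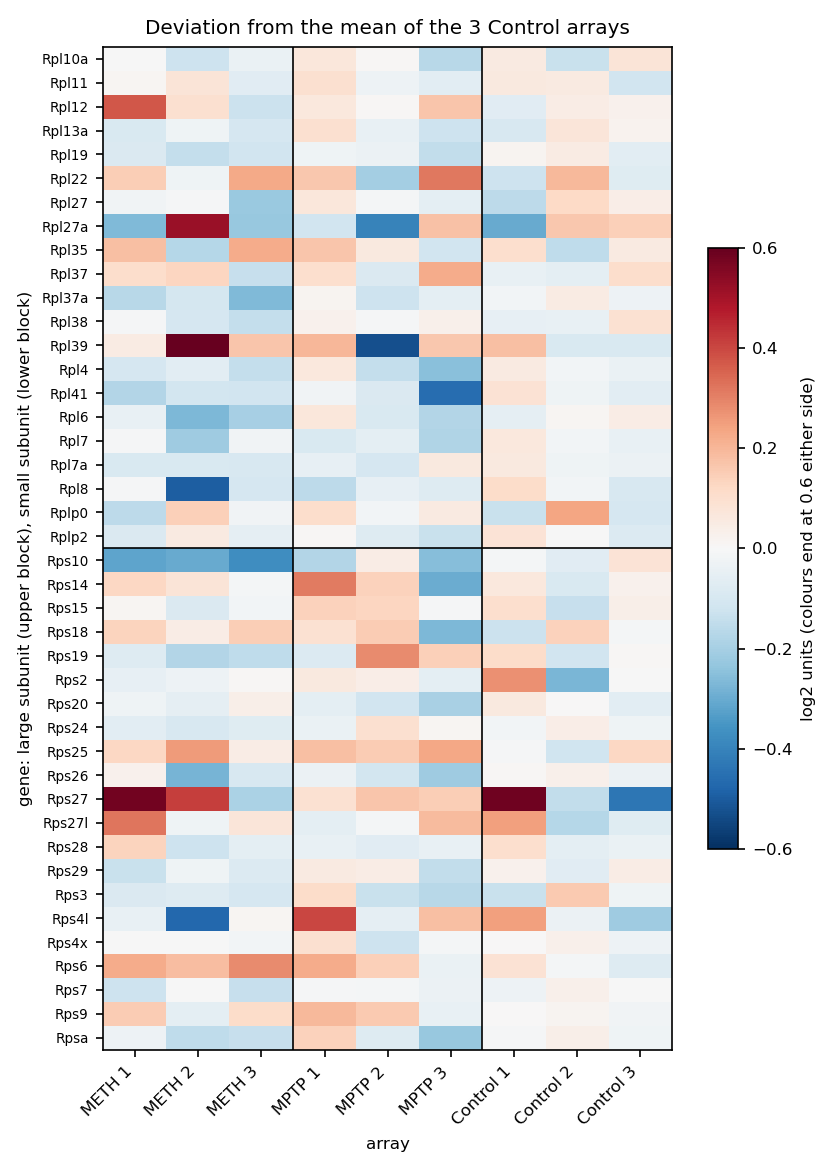
Log2 signal of the 42 ribosomal protein genes (rows) on the 9 arrays (columns, METH, MPTP, Control), as the deviation of the lead probe set from the mean of the 3 Control arrays, with colours ending at 0.6 log2 units either side. Rps10 is below 0 on all 3 METH arrays and Rps6 above 0 on them, while Rps27, Rpl39 and Rpl27a differ strongly between arrays of the same group.

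Counting the members whose groups did not overlap gave 8 of 42 lower and 1 higher in METH than in Control, against 7.19% of all genes lower and 6.48% higher. The lower ones were Rps10, Rpl37a, Rpl19, Rpl41, Rpl7a, Rpl4, Rpsa and Rps24, and the higher one was Rps6. This count too moved with the scaling: 1 lower and 1 higher after quantile normalization (all genes 7.67% and 5.46%), and 15 lower and 0 higher with arrays centred on their medians (all genes 12.4% and 3.58%). After cyclic loess it was 1 lower and 1 higher (all genes 7.71% and 5.68%). In MPTP against Control 2 of 42 were lower and 1 higher, against 5.14% and 6.13% of all genes. In METH against MPTP 3 were lower (Rps10, Rps24 and Rpl38) and 1 higher (Rps20), against 3.7% and 3.39%. In either direction the counts were 9, 3 and 4 of 42, against 13.7%, 11.3% and 7.09% of all genes. The number of members apart from Control in the same direction in both toxins was 0, against 2.32% of all genes higher and 2.18% lower.

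The summed signal of the 42 lead probe sets gave the same dependence at the level of arrays. It was 881229, 860290 and 858266 in METH 1, 2 and 3, 932585, 896746 and 838554 in MPTP 1, 2 and 3, and 924193, 901838 and 902922 in Control 1, 2 and 3. The METH mean of 866595 ± 12714 (SD, n = 3) differed by -4.73% from the Control mean of 909651 ± 12606 (SD, n = 3), and these arrays did not overlap. The MPTP mean of 889295 ± 47456 (SD, n = 3) differed by -2.24% from Control, with MPTP 1 the highest and MPTP 3 the lowest of the 9 arrays. After quantile normalization the METH arrays spanned 871481 to 905812 and the Control arrays 872428 to 903642, so that the METH and Control ranges overlapped almost fully. After cyclic loess they spanned 867497 to 903567 in METH mice and 872350 to 901007 in Control mice. With arrays centred on their medians METH lay at 801879 to 876304 and Control at 919818 to 944572, apart again. The summed signal is led by the brightest probe sets, and no p-value was computed for it.

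On the log2 scale, where each gene counts alike, the mean deviation of the 42 genes from their 9-array means was -0.015 ± 0.033 in METH mice, 0.005 ± 0.056 in MPTP mice and 0.010 ± 0.029 in Control mice (SD, n = 3 each). These ranges overlapped between all groups. In METH 3, 31 of 42 members were below their own mean, with a mean deviation of -0.045, against -0.022 over all genes tested. In MPTP 1 only 12 of 42 were, with 0.068, against 0.001 over all genes. The share of all genes below their own mean on these arrays was not counted.

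**Figure D3:**
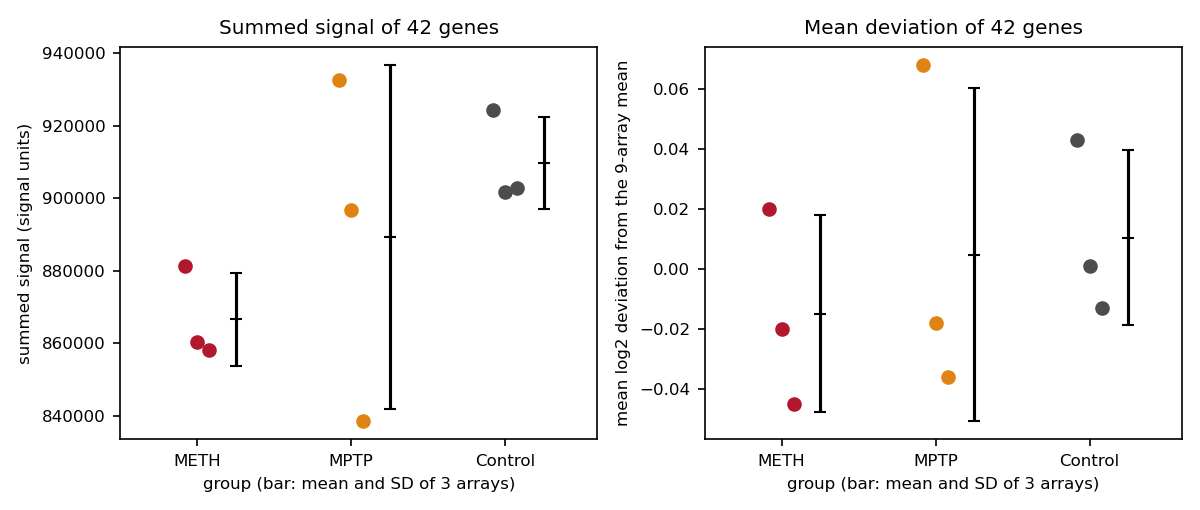
Summed signal of the 42 lead probe sets in signal units (left) and mean log2 deviation of the 42 genes from their 9-array means (right), 1 point per array, with the mean and SD of 3 arrays beside each group, and vertical axes that do not start at 0. On the left the METH arrays lie between 858266 and 881229, below the Control arrays, while on the right all groups overlap.

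Striatal tissue is a mix of cells, so a lower level of a message in fewer cells of a type and less of it per cell cannot be told apart. All 6 neuron, all 6 spiny neuron, all 6 astrocyte, all 7 microglia, all 6 oligodendrocyte and all 5 endothelial markers on the arrays were above the filter. So were 7964 of the 12393 genes with a single symbol, which makes this a weak check of the tissue label. The summed signal of the neuron markers was 71510 to 80349 in METH mice, 75822 to 79182 in MPTP mice and 80284 to 82494 in Control mice. For the astrocyte markers it was 44185 to 52497 in METH mice, 48574 to 54184 in MPTP mice and 40536 to 44294 in Control mice. For the microglia markers it was 50881 to 51496, 48043 to 52137 and 41870 to 48136 in METH, MPTP and Control mice. Microglia markers were thus higher on all METH arrays than on all Control arrays, while the neuron and astrocyte ranges of METH and Control mice touched by a narrow margin. On all MPTP arrays the neuron sum lay below, and the astrocyte sum above, all Control arrays. A sum is led by its brightest markers, and markers of a list differed in sign. In METH against Control 2 of 6 neuron and 5 of 6 astrocyte markers were positive. In MPTP against Control 2 of 6 and 4 of 6 were. The part of these cell types in the ribosomal protein values was not tested. Spiny neuron markers summed to 170154 to 182506 in METH mice, 154215 to 180725 in MPTP mice and 173285 to 194100 in Control mice, and oligodendrocyte markers to 118477 to 129690, 117901 to 135617 and 109939 to 122917. Endothelial markers overlapped in all groups, at 8775 to 9356, 8656 to 9304 and 8795 to 9327. Choroid plexus markers, a sign of how the tissue was dissected, varied widely within groups, at 9826 to 52611, 4064 to 34834 and 12843 to 68117, with Kl below the filter. Of the 3 blood markers on the arrays, Hba-a1 and Alas2 were below the filter, and all 3 summed to 1491 to 1964, 1417 to 2034 and 1543 to 1923. The tested blood marker, the haemoglobin gene Hbb-b2, lay above Control without overlap in both toxins but did not pass, at 0.69 ± 0.23 in METH (adjusted p = 0.543) and 0.57 ± 0.23 in MPTP against Control (adjusted p = 0.873).

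By subunit, large-subunit genes had median log2 fold changes of -0.07 in METH against Control, -0.03 in MPTP against Control and -0.03 in METH against MPTP. Small-subunit genes had -0.02, 0.01 and -0.03. In METH against Control 7 of 21 genes were positive in each subunit, and in MPTP against Control 6 of 21 large-subunit and 11 of 21 small-subunit genes were.

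The stalk is the arm of the large subunit that recruits the GTPases of translation, and 3 of its genes were tested. Rplp0, its base, read 15789, 19457 and 17328 in METH mice, 18916, 17429 and 18278 in MPTP mice, and 16025, 20750 and 16405 in Control mice. Rplp2, an acidic stalk protein, read 32681, 36011 and 33490 in METH mice, 34878, 32894 and 31677 in MPTP mice, and 36798, 34688 and 32859 in Control mice. All groups overlapped for both, with log2 fold changes in METH against Control of -0.01 ± 0.12 for Rplp0 and -0.03 ± 0.09 for Rplp2. In MPTP against Control they were 0.05 ± 0.12 for Rplp0 and -0.07 ± 0.09 for Rplp2. The median over Rplp0, Rplp2 and Rpl12 was -0.01 in METH against Control and 0.05 in MPTP against Control.

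Along the exit tunnel, 5 genes were tested (Rpl4, Rpl19, Rpl22, Rpl35 and Rpl39), with medians of 0.08 in METH against Control, -0.06 in MPTP against Control and 0.03 between the toxins. Rpl22, which in mice is needed for the development of some T cells, had 0.12 ± 0.15 in METH against Control and 0.09 ± 0.15 in MPTP against Control. Around the message channel and the decoding site 7 genes were tested, and 1 was positive in METH against Control, 3 in MPTP against Control and 2 in METH against MPTP. Among them Rpsa, also known as the laminin receptor precursor, read 20075, 18484 and 18638 in METH mice, 22586, 19451 and 17535 in MPTP mice, and 20414, 21030 and 20137 in Control mice. The METH arrays lay just below the Control arrays for Rpsa (-0.11 ± 0.10, adjusted p = 0.79), and the MPTP arrays reached both above and below them.

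Free ribosomal proteins can bind Mdm2, the ligase that degrades p53. A short list chosen for that role, which need not be complete, held 4 tested genes. Rpl11, which acts in a complex with an RNA of the large subunit, read 13636, 14246 and 12890 in METH mice, 14438, 13214 and 12913 in MPTP mice, and 14084, 14012 and 12496 in Control mice. Its log2 fold changes were 0.01 ± 0.09 in METH against Control and 0 ± 0.09 in MPTP against Control, with 95% intervals of -0.20 to 0.21 and -0.21 to 0.21. Rps27l, a relative of Rps27 induced by p53, read 3767, 2959 and 3168 in METH mice, 2899, 2994 and 3437 in MPTP mice, and 3576, 2677 and 2864 in Control mice (0.12 ± 0.14 and 0.04 ± 0.14). The groups of both genes overlapped in all comparisons. Rps27 itself was the least steady member, at 1852, 1654 and 1088 in METH mice, 1322, 1392 and 1375 in MPTP mice, and 1858, 1120 and 917 in Control mice (0.27 ± 0.25 in METH and 0.14 ± 0.25 in MPTP against Control).

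Several members serve as reference genes in transcript measurements, and 6 of them were tested, with medians of -0.08 in METH against Control, -0.01 in MPTP against Control and -0.05 between the toxins. Rpl13a, which in human cells also leaves the ribosome to silence inflammatory messages, read 30225, 31593 and 29965 in METH mice, 34401, 31199 and 29466 in MPTP mice, and 30132, 33793 and 32686 in Control mice. Rps18, of the small-subunit head, read 24042, 22597 and 24310 in METH mice, 23381, 24370 and 18168 in MPTP mice, and 20058, 24141 and 21730 in Control mice. On the lead probe sets of both genes the groups overlapped, with -0.07 ± 0.09 for Rpl13a and 0.11 ± 0.12 for Rps18 in METH against Control. On the second brightest Rpl13a probe set all METH arrays lay below all Control arrays (-0.15 ± 0.10). METH and Control overlapped on its remaining probe sets above the filter, at -0.03 ± 0.09 and 0.01 ± 0.09. The dimmest of them had METH above MPTP without overlap (0.11 ± 0.09). Rps4x, the X-linked form of the small-subunit protein S4, varied little between METH and Control mice, at 26738, 26808 and 26534 in METH mice, 28700, 24626 and 26574 in MPTP mice, and 26854, 27390 and 26222 in Control mice. The Rps4x log2 fold changes were -0.01 ± 0.09 against Control in both toxins. Of the members tied to Diamond-Blackfan anaemia in humans, 12 were tested, and 3 were positive in METH against Control and 4 in MPTP against Control, with medians of -0.08 and -0.01.

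For 3 members the only probe set was too dim for the main test. Rpl14 read 323, 356 and 264 in METH mice, 331, 243 and 333 in MPTP mice, and 462, 270 and 349 in Control mice. Rpl39l, a relative of Rpl39 found mainly in male germ cells, read 51, 247 and 150 in METH mice, 77, 54 and 46 in MPTP mice, and 85, 31 and 48 in Control mice. Rpl3l, the form of Rpl3 made in heart and skeletal muscle, read 63, 186 and 139 in METH mice, 234, 238 and 171 in MPTP mice, and 115, 177 and 83 in Control mice. These signals lie below the filter of 741 units, where replicates spread most. They were compared only in the alternative with no filter, in which 0 ribosomal protein genes passed.

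Probe sets of the same gene often gave different signs. Neither the signs nor the ranges below were measured for other genes with several probe sets, so they are not shown to be particular to the members. Of the 18 tested genes with at least 2 probe sets above the filter (79 ribosomal protein probe sets in all), 8 had the same sign on all of them in METH against Control, 5 in MPTP against Control and 5 in METH against MPTP. The range between a gene's probe sets had a median of 0.15, 0.12 and 0.17 log2 units in these comparisons, which exceeds most members' fold changes. When each of 12509 probe sets was tested on its own, an alternative chosen after seeing the data, 0 of the 79 passed in any comparison.

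Rpl41 had the widest range, 0.51 log2 units in METH against Control. It encodes a very short peptide at the interface of the subunits. Its brightest probe set read 48023, 50327 and 50130 in METH mice, 53477, 51164 and 39542 in MPTP mice, and 57626, 53435 and 52035 in Control mice. The METH arrays lay below Control and the MPTP arrays overlapped with Control, with log2 fold changes of -0.13 ± 0.12 and -0.19 ± 0.12 (adjusted p = 0.767 and 0.883). The second brightest of its probe sets read 19489, 26007 and 20641 in METH mice, 23866, 21556 and 23772 in MPTP mice, and 26995, 29373 and 27431 in Control mice. Here all 6 toxin arrays lay below all Control arrays, with -0.35 ± 0.12 in METH against Control and -0.28 ± 0.12 in MPTP against Control (adjusted p = 0.519 and 0.88). The dimmest Rpl41 probe set above the filter had 0.16 ± 0.19 in METH against Control and -0.27 ± 0.19 in MPTP against Control.

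The probe sets whose METH and MPTP arrays all lay below Control were this Rpl41 probe set and the dimmest of Rps28, 2 of 79 ribosomal protein probe sets, against 1.97% of all probe sets. They were picked out after their values were seen. Rps28, a small-subunit protein near the message exit, read 32737, 30756 and 29791 on that probe set in METH mice, 32710, 31140 and 31233 in MPTP mice, and 33893, 33428 and 33652 in Control mice. The margin was small (-0.12 ± 0.08 and -0.09 ± 0.08), and the other Rps28 probe sets overlapped between groups.

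**Figure D4:**
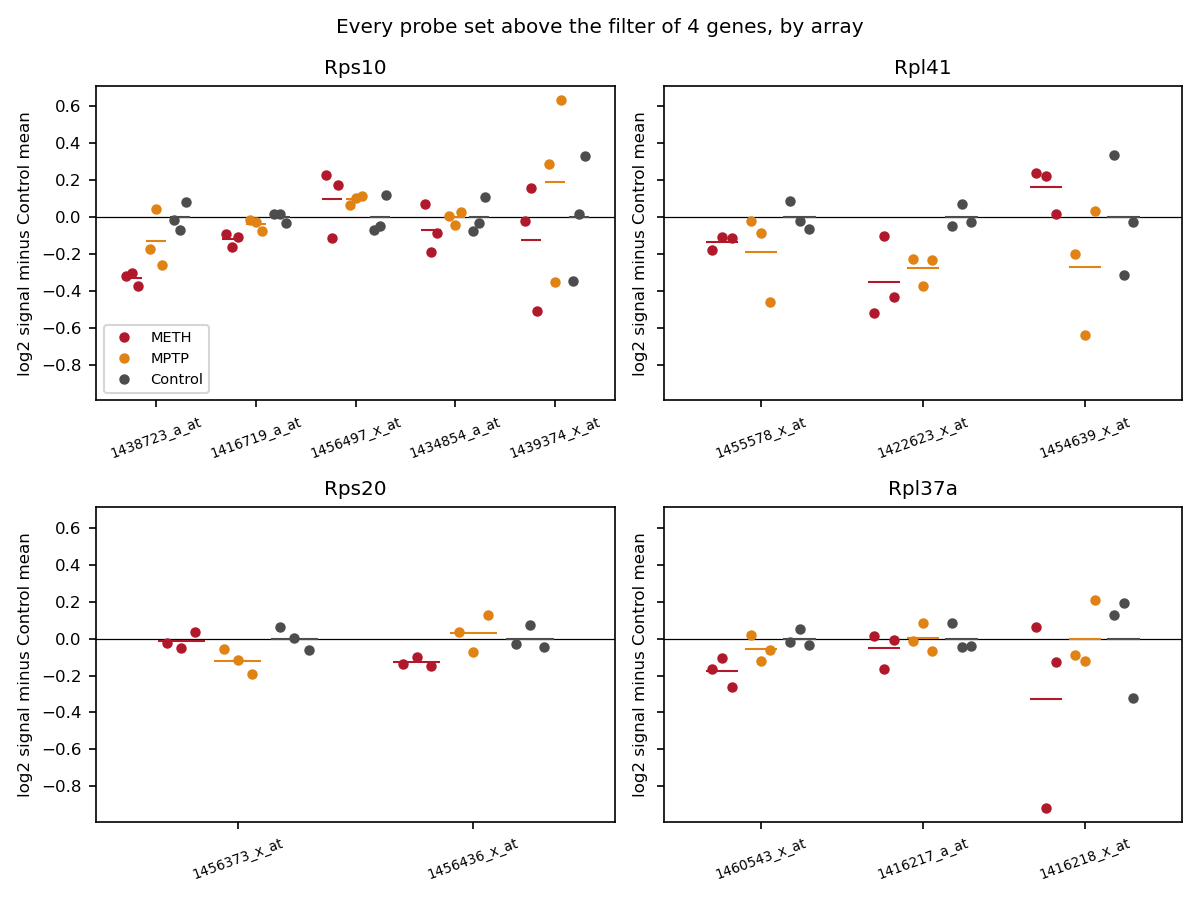
Log2 signal minus the mean of the 3 Control arrays (vertical axis) for every probe set above the filter of Rps10, Rpl41, Rps20 and Rpl37a, brightest first, with 1 point per array and a line at each group mean. Of the Rps10 probe sets only the brightest has a METH mean of -0.33, as has the dimmest Rpl37a probe set. The Rpl41 probe sets differ in the sign of the METH mean.

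By start-site sequence, 18 tested members with a promoter had a pyrimidine run of at least 8 bases and 18 had shorter runs. In METH against Control the genes with the longer run had a median log2 fold change of 0.01, with 10 positive and 8 negative, and those with shorter runs had -0.07, with 3 positive and 15 negative. For MPTP against Control the medians were 0 and -0.02, and for METH against MPTP they were 0.01 and -0.05. Rps10 and Rps6, the pair with the smallest p-values in METH striatum, both belong to the longer runs and had opposite signs. These medians were taken on the deposited scale, with no test.

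In the lists of genes that act around the ribosome, 0 genes passed the same test in each list and comparison. Of other messages known to carry a TOP motif, 15 were tested, with medians of -0.02 in METH against Control, 0.01 in MPTP against Control and -0.03 between the toxins. The largest value was in Vim, the intermediate filament vimentin of reactive astrocytes, at 0.43 ± 0.13 in METH (adjusted p = 0.503) and 0.30 ± 0.13 in MPTP against Control (adjusted p = 0.873). Translation factors named by the smallest p were Eif3f at -0.18 ± 0.09 in METH against Control, Eef1d at -0.27 ± 0.15 in MPTP against Control and Eif3h at -0.13 ± 0.08 between the toxins. Npm1, a nucleolar chaperone, had -0.19 ± 0.11 in METH against Control.

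Genes of ribosome assembly, 31 of them tested, had medians of -0.02, -0.03 and -0.01 in METH against Control, MPTP against Control and METH against MPTP. In METH against Control the smallest p-values were those of Utp18, which helps process small-subunit RNA (-0.23 ± 0.09 in METH against Control, adjusted p = 0.545), and Rrn3, which starts transcription by RNA polymerase I (-0.21 ± 0.10, adjusted p = 0.613). Nhp2, of the RNA-modifying box H/ACA particles, had -0.24 ± 0.11 in METH and -0.19 ± 0.11 in MPTP against Control. Bysl, an assembly factor of the small subunit, had -0.25 ± 0.14 in MPTP against Control and 0.43 ± 0.14 between the toxins (adjusted p = 0.882 and 0.999), the smallest p of the list there. Utp3, which acts in the same processing, had -0.31 ± 0.12 between the toxins (adjusted p = 0.999).

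Of the mTORC1 pathway and the regulators of TOP messages, 14 genes were tested, with medians of 0.01, -0.02 and 0.05. Eif4ebp2, the main repressor of cap-dependent translation in brain, had 0.24 ± 0.11 in METH against Control (adjusted p = 0.599). The kinase Mtor had -0.12 ± 0.09 in MPTP against Control and 0.12 ± 0.09 between the toxins, and Larp1, which binds the TOP motif, had 0.11 ± 0.09 between the toxins (adjusted p = 0.999). Ddit4, a stress-induced inhibitor of mTORC1, had -0.19 ± 0.18 in METH against Control and -0.28 ± 0.18 between the toxins.

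Mitochondrial ribosomal proteins, which form a separate ribosome, had 74 genes tested and medians of -0.04, -0.03 and -0.02. Mrpl9 had 0.41 ± 0.12 in METH and 0.37 ± 0.12 in MPTP against Control (adjusted p = 0.503 and 0.857), and Mrps28 had -0.36 ± 0.12 and -0.28 ± 0.12 (adjusted p = 0.543 and 0.873). Mrps18b had -0.56 ± 0.18 in METH against MPTP (adjusted p = 0.999). Of the ribosomal proteins and relatives whose symbols fall outside the rule, 3 were tested. Fau, whose product is cleaved to yield a small-subunit protein, had -0.11 ± 0.10 in METH against Control, Rpl7l1 had 0.07 ± 0.10 and Rpl22l1 had -0.06 ± 0.13 (adjusted p = 0.769, 0.856 and 0.91).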

How the data were processed

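The authors' deposited table holds linear intensity values, 1 per probe set and array. Per the submitters' processing notes RMA was used, with no version stated. The linear scale was read from the values. RMA output is usually on a log scale without a common trimmed mean, so how these probe set values were summarised is unsettled. No detection or saturation calls were used. The arrays' trimmed means were all 2501, their medians 1111 to 1233, and their Spearman correlations 0.97 to 0.985. METH 2 had the narrowest distribution, 6.25 log2 units from the 10th to the 90th percentile.

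Values were put on the log2 scale with no further normalization. A filter removed probe sets whose mean over the arrays lay under the 40th percentile, 9.53 in log2 or 741 in signal, and the probe set with the highest mean stood for its gene. limma 3.58.1 in R 4.3.3 (lmFit with a mean per group, then eBayes) used all 9 arrays, with 6 residual and 3.9 prior degrees of freedom, Benjamini-Hochberg adjustment over 7964 genes, and two-sided tests. As a check of the code only, the fit was run on simulated data, drawn independently for each gene and array. A ± after a fold change is its SE. The number of arrays limits the precision.

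Gene symbols came from the platform annotation, and the gene IDs and symbols of all 96 ribosomal protein probe sets matched RefSeq (GRCm38.p6). Left out were 102 probe sets that list several symbols, at least 1 of them in the rule, including 28 ribosomal protein symbols found only there. Of the 42 lead probe sets, 15 end in _x_at and 1 in _s_at, which marks probes that can bind related sequences. Ribosomal protein genes have many processed pseudogenes, so signal may be shared.

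The members, lists and tests were chosen with earlier results of these data known. Named were members past the test, the 8 with the smallest p in each comparison, members apart from Control in both toxins, a fixed set of 20 (12 tested), up to 3 genes of each other list with the smallest p in each comparison, and Gfap. Arrays with the same replicate number did not deviate together, so the numbers were not taken as pairs. Alternatives were other scalings, filters, probe set rules, an added pseudocount of 100.0, array weights, only the groups compared, a replicate block and leaving out each array.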

Additional observations from a re-analysis of the deposited data

How the results depend on the processing

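The count of ribosomal protein genes past the test was 0 in all 3 comparisons under each alternative run. Over all genes, METH against Control and MPTP against Control each had 1 past the test. Both counts became 0 with arrays centred on their medians and 0 with the replicate block, and 2 with each probe set tested on its own (chosen after seeing the data). The MPTP count was also 0 with array weights, 0 with only the groups compared, and 2 with no filter. Leaving out an array gave 0 to 2 in each of these comparisons. The median log2 fold change of the members in METH against Control was 0.003 after quantile normalization, 0.009 after cyclic loess and -0.107 with arrays centred on their medians, and -0.059 to -0.031 leaving out an array. In MPTP against Control it was -0.054 with arrays centred on their medians, and leaving out an array gave -0.053 (without MPTP 1) to 0.009 (without MPTP 3). In METH against MPTP leaving out an array gave -0.068 (without MPTP 3) to 0.024 (without MPTP 1). The number of members with a positive fold change was 24 in METH against Control after cyclic loess, and 26 in MPTP against Control after quantile normalization and 26 after cyclic loess. In METH against MPTP it was 12 without _x_at and _s_at probe sets, and 12 to 24 leaving out an array. Leaving out an array gave 13 to 18 in METH against Control and 14 to 22 in MPTP against Control. The cause of these moves was not tested. Rps10 in METH against Control ranged from -0.40 to -0.11, with adjusted p-values of 0.255 to 0.752, and Rps6 from 0.17 to 0.27 with 0.313 to 0.766. Same-numbered arrays had correlations of -0.15 to 0.05 in their deviations, and 0 of 9 arrays correlated best with its own number. The replicate block left the members' counts at 0 and their medians at -0.044, -0.014 and -0.031. Precision is limited by 3 arrays a group and, for the 3 dim members, by signal below the filter.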

Other observations

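Probe sets that list several symbols, at least 1 of them a ribosomal protein, cannot be given to a gene. Of 102 such probe sets 90 were above the filter, and when all 12931 probe sets above it with any gene symbol were tested, 0 of the 90 passed in each comparison by limma's adjusted p. At an unadjusted p under 0.05 there were 4 of 90 in METH against Control, against 8.7% of all probe sets, 1 in MPTP against Control, against 5.49%, and 1 in METH against MPTP, against 2.83%. Their median log2 fold changes were -0.06, -0.03 and -0.04. On the deposited scale, positive values were found in 25, 27 and 33 of the 90, against 52.7%, 52.3% and 49.5% of all probe sets.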
